A study of Mus musculus with 20 samples.

Results

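Thy1, Sncb and Sncg are 3 of the 24062 genes counted in microglial RNA of mThy1-Asyn mice and their wild-type controls, and were taken by symbol: Thy1 is the gene whose promoter drives the transgene, and Sncb and Sncg encode β-synuclein and γ-synuclein, the relatives of the human α-synuclein that the transgene encodes. The mThy1-Asyn mice (genotype HEM in the sample labels) carry human wild-type α-synuclein behind the mouse Thy-1 promoter, inserted on the X chromosome, and only males were used. All mice were of the B6D2F1/J background. Mice aged 7 months comprised 6 mThy1-Asyn and 4 wild-type animals, and those aged 10 months 5 of each genotype. Each sample is the RNA of microglia from the whole brain of 1 mouse, with no pooling. The methods describe selection with CD11b beads and the labels name IBA1 beads. Reads were counted on mouse genes, and expression of the human gene is not analysed here.

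Thy1 (CD90) is a small glycoprotein held in the outer membrane by a GPI anchor. It is abundant on neurons and, in the mouse, on T cells, and it binds integrins on neighboring cells. Its promoter is used in many transgenes because it drives strong expression in neurons after birth. The synucleins are small proteins of presynaptic terminals that bind membranes. β-synuclein is found with α-synuclein in the brain and aggregates poorly, and γ-synuclein is best known from sensory, motor and some midbrain and retinal neurons. Microglia, the resident macrophages of the brain, are not known as a major source of any of these proteins.

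Of the 3 genes, Sncb and Sncg had an entry among the RefSeq promoter sequences (build GRCm38.p6), running from 250 bases before to 50 bases after the start of the transcript. Thy1 had no entry there, so its promoter is not shown. The Sncb sequence is the minus strand of chr13:54766546-54766845 and the Sncg sequence the minus strand of chr14:34374620-34374919. Capitals mark GGGCGG, the core of the GC box, or its reverse complement CCGCCC.
Sncb promoter: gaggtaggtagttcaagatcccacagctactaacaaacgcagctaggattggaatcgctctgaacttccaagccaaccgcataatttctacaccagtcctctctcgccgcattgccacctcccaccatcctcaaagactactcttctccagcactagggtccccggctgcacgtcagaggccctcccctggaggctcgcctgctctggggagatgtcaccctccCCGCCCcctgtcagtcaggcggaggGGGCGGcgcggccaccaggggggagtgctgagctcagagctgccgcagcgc
Sncg promoter: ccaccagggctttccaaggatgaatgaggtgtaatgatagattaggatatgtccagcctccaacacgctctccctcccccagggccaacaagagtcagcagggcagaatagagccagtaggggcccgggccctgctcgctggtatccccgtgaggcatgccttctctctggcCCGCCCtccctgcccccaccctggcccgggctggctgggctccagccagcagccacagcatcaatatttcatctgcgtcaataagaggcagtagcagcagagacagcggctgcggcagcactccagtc
The GC-box letters occurred 2 times in the Sncb promoter and 1 time in the Sncg promoter, on either strand, and in 35.7% of the 32851 promoters of the table. TATAAA, the letters of a TATA box, searched on both strands, was in neither sequence and in 13.6% of all. The Sncb promoter held 15 CpG dinucleotides and the Sncg promoter 9, against a median of 7. The GC content was 62.0% in Sncb and 61.3% in Sncg.

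Thy1 was far higher in mThy1-Asyn microglial RNA than in wild-type at both ages, and no mouse of one genotype overlapped the other. The values, called normalized counts here, are reads per gene after the authors' division by each mouse's size factor. At 7 months, the 6 mThy1-Asyn mice had between 392 and 1298 normalized counts of Thy1 (median 877), which were 462 to 1905 reads. The 4 wild-type mice had 47.6, 44.7, 17.7 and 46.8, or 15 to 53 reads. The lowest mThy1-Asyn mouse, replicate 4, therefore stood 8.24 times above the highest wild-type mouse.

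The group means were 919 ± 337 (SD, n = 6) and 39.2 ± 14.4 (SD, n = 4) normalized counts, a ratio of 23.4. On the log2(value + 1) scale the difference was 4.51 ± 0.36 (SE), with a 95% confidence interval from 3.72 to 5.31 (limma adjusted p = 0.000203). Thy1 was 1 of 3 genes of interest called at an adjusted p under 0.05, where 4.93% of the 13887 genes tested were called (2.23% higher and 2.7% lower in mThy1-Asyn mice). It ranked 4 by p and 5 by the size of the change among these genes, and 5 genes (0.036%) were higher by at least 16-fold. The exact permutation test of its values gave p = 0.00952 (two-sided), the smallest that 6 against 4 mice allow.

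At 10 months, the 5 mThy1-Asyn mice had 1117, 1463, 1741, 1197 and 1595 normalized counts of Thy1. The wild-type mice had 15.9, 32.4, 13.2, 9.41 and 15.9, which were 7 to 23 reads. The gap between the groups was wider than at 7 months, the lowest mThy1-Asyn mouse lying 34.5 times above the highest wild-type mouse.

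The means were 1423 ± 263 and 17.4 ± 8.80 normalized counts (SD, n = 5 each), a ratio of 82.0. The log2 difference was 6.37 ± 0.26 (SE), with a 95% interval from 5.81 to 6.93 (limma adjusted p = 3.44e-09). It had the smallest p of the 13627 genes tested and ranked 3 by size, in a comparison where 7.67% of genes were called (3.88% higher and 3.79% lower) and 0.0367% were higher by at least 16-fold. The exact permutation test gave p = 0.00794 (two-sided), the smallest possible with 5 against 5 mice. The groups did not overlap with mThy1-Asyn higher in 3.55% of all tested genes at 7 months and in 3.78% at 10 months.

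**Figure D1:**
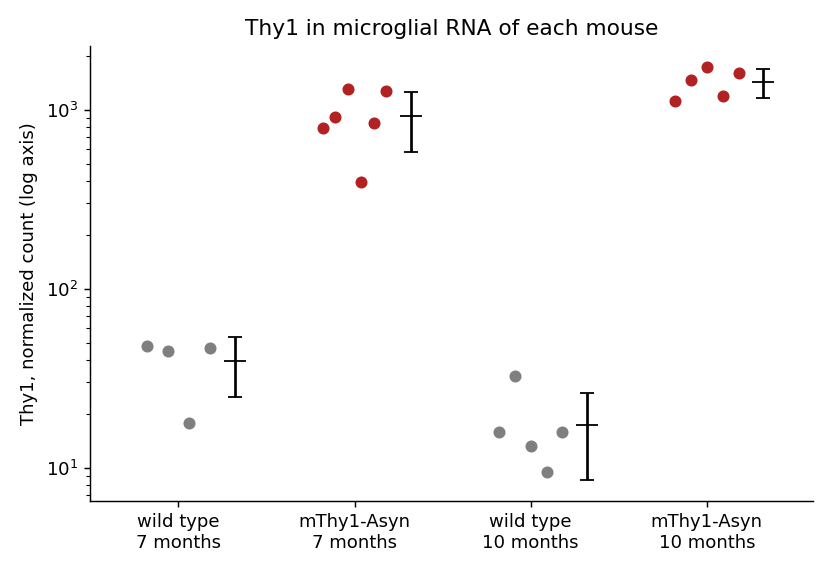
Normalized counts of Thy1 (log axis) in each mouse of the 4 groups, with wild-type mice in gray and mThy1-Asyn mice in red. Bars give the mean and SD beside the points, and every mThy1-Asyn mouse, from 392 to 1741, lies above every wild-type mouse, from 9.41 to 47.6.

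Counts per gene hold all reads assigned to Thy1, so transcripts of the Thy1 gene on chromosome 9 and any transgene RNA that carries Thy1 sequence cannot be told apart. Which Thy1 sequence the transgene carries is not given in the sources used here. In bulk RNA, likewise, a change in the number of cells that express a gene and a change in RNA per cell cannot be told apart. The Thy1 gene (ENSMUSG00000032011.5) lies on the plus strand of mm10 chromosome 9 from 44043384 to 44048579, with 2995 bases of exon, and no annotated gene overlaps it.

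The order of the Thy1 levels was mThy1-Asyn at 10 months, mThy1-Asyn at 7 months, wild-type at 7 months and wild-type at 10 months. The neighbors in this order within a genotype overlapped: 3 of the 5 mThy1-Asyn mice at 10 months lay above all 6 at 7 months, and 4 of the 5 wild-type mice at 10 months lay below all 4 at 7 months. At 10 months the mean of mThy1-Asyn mice was 1.55 times its value at 7 months, and that of wild-type mice 0.442 times. The authors normalized each age on its own, so these ratios between ages also carry that step.

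The genotype difference was larger at 10 months by 1.86 ± 0.47 (SE) on the log2 scale, with a 95% interval from 0.88 to 2.83 (limma, all 20 mice, adjusted p = 0.0208), where 6.36% of 14457 genes were called (3.74% with a larger value at 10 months). With size factors computed over all 20 mice it was 1.87 (adjusted p = 0.0199). From 7 to 10 months the mean log2 value changed by 0.71 in mThy1-Asyn mice and by -1.15 in wild-type mice. The wild-type values rest on 15 to 53 reads per mouse at 7 months and 7 to 23 at 10 months. Not every alternative kept the call. Among others, it was lost without wild-type replicate 1 at 7 months (1.73, adjusted p = 0.0518) and with limma-voom quality weights (2.00, adjusted p = 0.324).

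Sncb, unlike Thy1, was near the lower limit of what was counted, and its genotype difference passed the test at neither age. At 7 months, the 6 mThy1-Asyn mice had between 2.24 and 19.4 normalized counts (median 11.9), which were 2 to 23 reads. The 4 wild-type mice had 14.4, 40.6, 17.7 and 26.6. The ranges overlapped, although 3 of the 6 mThy1-Asyn mice lay below every wild-type mouse.

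The means were 11.5 ± 6.77 (SD, n = 6) against 24.8 ± 11.7 (SD, n = 4), a log2 difference of -1.18 ± 0.59 (SE) with a 95% interval from -2.43 to 0.08 (limma adjusted p = 0.264, exact permutation p = 0.0762). A decrease of 4-fold therefore lies within the interval, as does no change.

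At 10 months, Sncb was at 28.5, 20.7, 13.9, 14.6 and 12.0 normalized counts in mThy1-Asyn mice. Wild-type mice had 19.1, 5.63, 13.2, 10.8 and 5.53. Here the direction was the opposite, with 2 mThy1-Asyn mice above every wild-type mouse. The means were 18.0 ± 6.72 and 10.8 ± 5.67 (SD, n = 5 each), and the log2 difference was 0.75 ± 0.47 (SE, 95% interval -0.25 to 1.75, limma adjusted p = 0.360, exact permutation p = 0.103). The difference between the ages was 1.93 ± 0.73 (SE), a value close to that of Thy1 with a wider error, and did not pass the test (limma adjusted p = 0.115). Sncb (ENSMUSG00000034891.13) lies on the minus strand of chromosome 13 from 54758860 to 54766595, with 2145 bases of exon.

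Sncg was also low, and the genotypes overlapped at both ages. At 7 months, the 6 mThy1-Asyn mice had between 4.85 and 29.7 normalized counts (median 13.7), and the 4 wild-type mice had 8.09, 13.5, 13.0 and 25.5. The means of 14.3 ± 8.63 (SD, n = 6) and 15.0 ± 7.42 (SD, n = 4) were nearly the same. The log2 difference was -0.15 ± 0.56 (SE), with a 95% interval from -1.34 to 1.03 (limma adjusted p = 0.908, exact permutation p = 0.810), so changes of 2-fold either way lie within it.

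At 10 months, Sncg was at 45.4, 18.3, 16.1, 66.2 and 16.1 normalized counts in mThy1-Asyn mice and at 26.5, 42.2, 66.0, 37.6 and 30.4 in wild-type mice. The mThy1-Asyn mice split into 3 below every wild-type mouse and 2 within or just above their range. The means were 32.4 ± 22.6 and 40.5 ± 15.5 (SD, n = 5 each), with a log2 difference of -0.49 ± 0.43 (SE, 95% interval -1.42 to 0.43, limma adjusted p = 0.536, exact permutation p = 0.333). The genotype difference did not pass the test of a difference between the ages (-0.34 ± 0.68, SE, limma adjusted p = 0.819). Sncg (ENSMUSG00000023064.4) lies on the minus strand of chromosome 14 from 34370274 to 34374789, with 852 bases of exon.

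**Figure D2:**
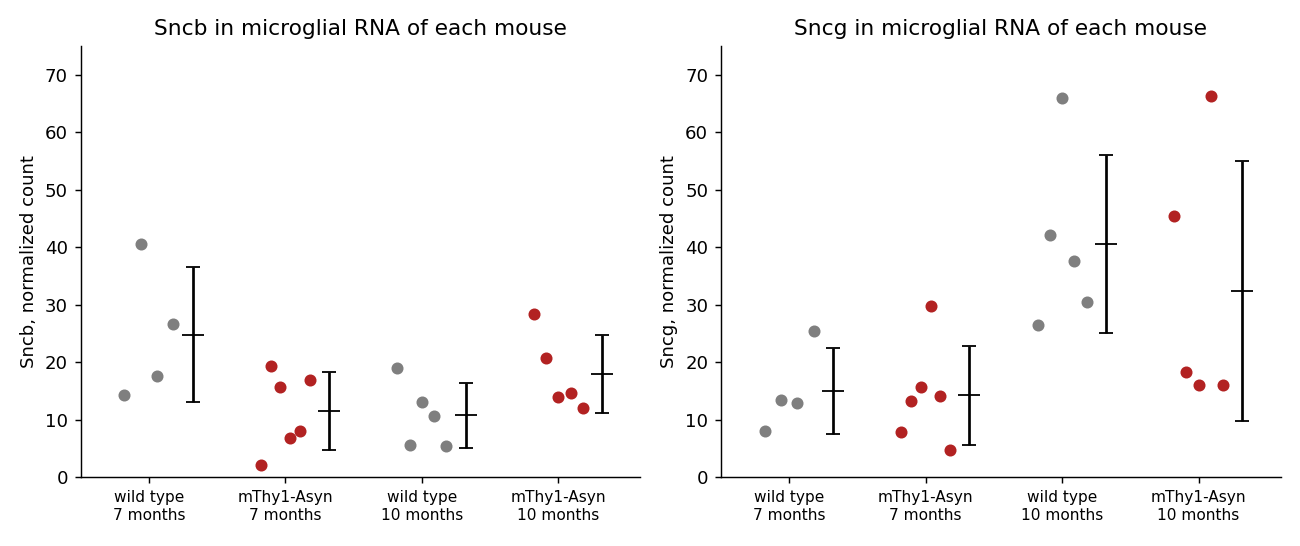
Normalized counts of Sncb (left) and Sncg (right) in each mouse, with wild-type mice in gray and mThy1-Asyn mice in red, and the mean and SD beside each group. The genotypes overlap at both ages in both genes, and no mouse exceeds 66.2 normalized counts.

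Across the ages, the 2 synuclein genes went different ways in wild-type mice. The wild-type mean of Sncb at 10 months was 0.437 of that at 7 months, and 4 of 5 mice lay below all 4 younger ones. That of Sncg was 2.70 times its value at 7 months. The lowest of the 5 mice had 26.5 (25 reads), just above the highest of the 4 younger ones at 25.5 (24 reads). How many of all genes set the ages apart in this way was not counted. In mThy1-Asyn mice the means of both genes were higher at 10 months, by 1.56 times for Sncb and 2.27 times for Sncg, with overlapping mice. These values compare ages that the authors processed and normalized apart and carry no test.

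**Figure D3:**
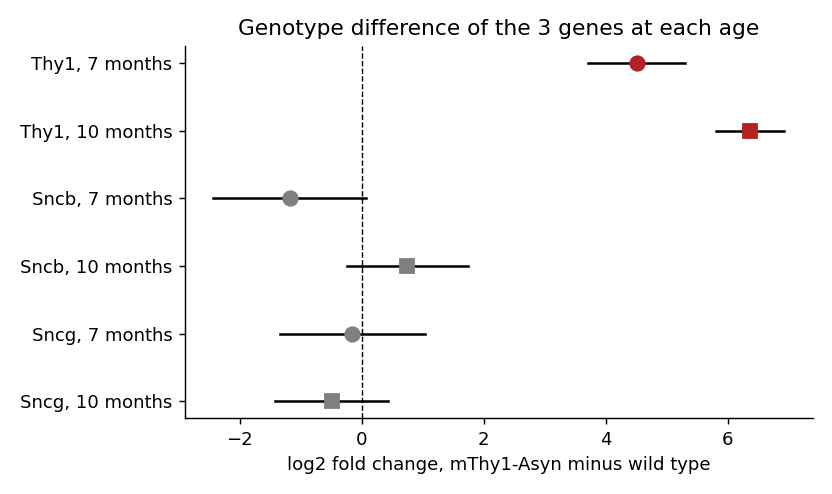
Log2 fold change (mThy1-Asyn minus wild type) of Thy1, Sncb and Sncg at 7 months (circles) and 10 months (squares), with 95% confidence intervals as lines. Thy1 (red, adjusted p under 0.05) lies at 4.51 and 6.37, and the intervals of Sncb and Sncg (gray) include 0 at both ages.

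Per kilobase of exon, the 3 genes were alike and low in wild-type microglial RNA at 7 months. Their mean levels were 13.1 normalized counts per kb for Thy1, 11.6 for Sncb and 17.6 for Sncg, above 14.5%, 13.6% and 16.9% of the tested genes. At 10 months the wild-type levels per kb were 5.79 for Thy1, 5.05 for Sncb and 47.6 for Sncg. In mThy1-Asyn mice Thy1 reached 307 per kb at 7 months, above 59.4% of tested genes, and 475 at 10 months, above 70.8%. Even so, Cx3cr1, the fractalkine receptor that marks microglia, stood 242 and 136 times higher per kb in the same mice. The Thy1 values divide by all 2995 bases of annotated exon. Which of these the transgene carries is not given, so a level per kb of transgene RNA cannot be stated.

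The RNA was that of microglia by its markers. The 13 microglial markers summed to between 2484630 and 3200570 normalized counts in every mouse, against 1061 to 3260 for 22 neuronal markers, 9203 to 12477 for 9 astrocyte markers and 6552 to 12456 for 7 oligodendrocyte markers. Slc1a3 alone, with group means from 7950 to 10176, made up most of the astrocyte sums. Camk2a (319 to 515) and Elavl4 (260 to 414) had the largest means among the neuronal markers. At 7 months no microglial marker was called (median log2 fold change 0.07, against 0.00093 over all tested genes). With 4.93% of all tested genes called at that age, few or no calls would be usual among 13 genes. At 10 months, Cx3cr1, Itgam, Sall1 and Siglech were called and higher in mThy1-Asyn mice (3.88% of all tested genes were called higher), by 0.21 to 0.31 on the log2 scale (median of the list 0.12, against -0.0026 over all), and each of these calls was lost in at least 7 of the 10 fits that left out 1 mouse.

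Neuronal markers were lower in mThy1-Asyn mice at 7 months, opposite to Thy1. Of the 22, 20 were tested at this age and 8 were called, all lower (2.7% of all tested genes were called lower), with a median log2 fold change of -1.39. The neurofilament gene Nefm had 46.6 ± 19.0 normalized counts against 244 ± 54.2 (log2 fold change -2.43, limma adjusted p = 0.000945), and Nefl 21.1 ± 4.85 against 95.3 ± 6.67. Syt1, the calcium sensor of synaptic vesicles, had 36.8 ± 22.5 against 191 ± 55.1 (-2.55, limma adjusted p = 0.0037), and the NMDA receptor subunit Grin2b 30.8 ± 14.9 against 147 ± 56.2 (SD, n = 6 and 4 throughout). Without wild-type replicate 1 the number called was 5.

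At 10 months 1 of 17 tested neuronal markers was called, where 7.67% of all tested genes were, and their median was 0.02. That gene was Camk2a, a kinase of excitatory synapses, at 319 ± 29.9 against 457 ± 70.5 normalized counts (SD, n = 5 each). Its call (limma adjusted p = 0.0285) was lost in 5 of the 10 fits without 1 mouse, and the adjusted p then reached 0.0682. The summed level of the 22 markers ran from 1223 to 1662 normalized counts in mThy1-Asyn mice and from 2170 to 3260 in wild-type mice at 7 months, and from 1061 to 1753 and 1393 to 1738 at 10 months. Tested for a difference between the ages, 6 of 20 neuronal markers passed, all with a larger value at 10 months (median 1.49; 3.74% of all tested genes passed in this direction), among them Nefm (2.25, limma adjusted p = 0.0035).

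Against the mean log2 level of the 17 neuronal markers tested at both ages, Thy1 stood on opposite sides in the genotypes. In wild-type mice it lay below that mean, with average differences of -1.27 at 7 months and -1.55 at 10 months. In mThy1-Asyn mice it lay above, with differences of 4.38 and 4.66. Within the mThy1-Asyn mice of 7 months, replicate 4 had both the lowest Thy1 (392) and the highest neuronal marker mean (5.86 on the log2 scale, the others at 5.04 to 5.53). Among those of 10 months, by contrast, replicate 3 had both the highest Thy1 (1741) and the highest neuronal marker mean (6.08).

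Between the genotypes, Sncb kept a steadier distance to the neuronal markers than Thy1 did. The average difference from the marker mean at 7 months was -1.96 in mThy1-Asyn and -1.92 in wild-type mice. Single mThy1-Asyn mice of that age ranged from -3.34 to -1.04. At 10 months it was -1.62 in mThy1-Asyn and -2.20 in wild-type mice. The wild-type changes of Sncb and Thy1 from 7 to 10 months (-1.15 each) also resembled that of the marker mean, from 6.51 to 5.63. For Sncg the distance in wild-type mice moved from -2.61 at 7 months to -0.33 at 10 months. The part of neuronal RNA in the Thy1, Sncb and Sncg values was not tested.

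**Figure D4:**
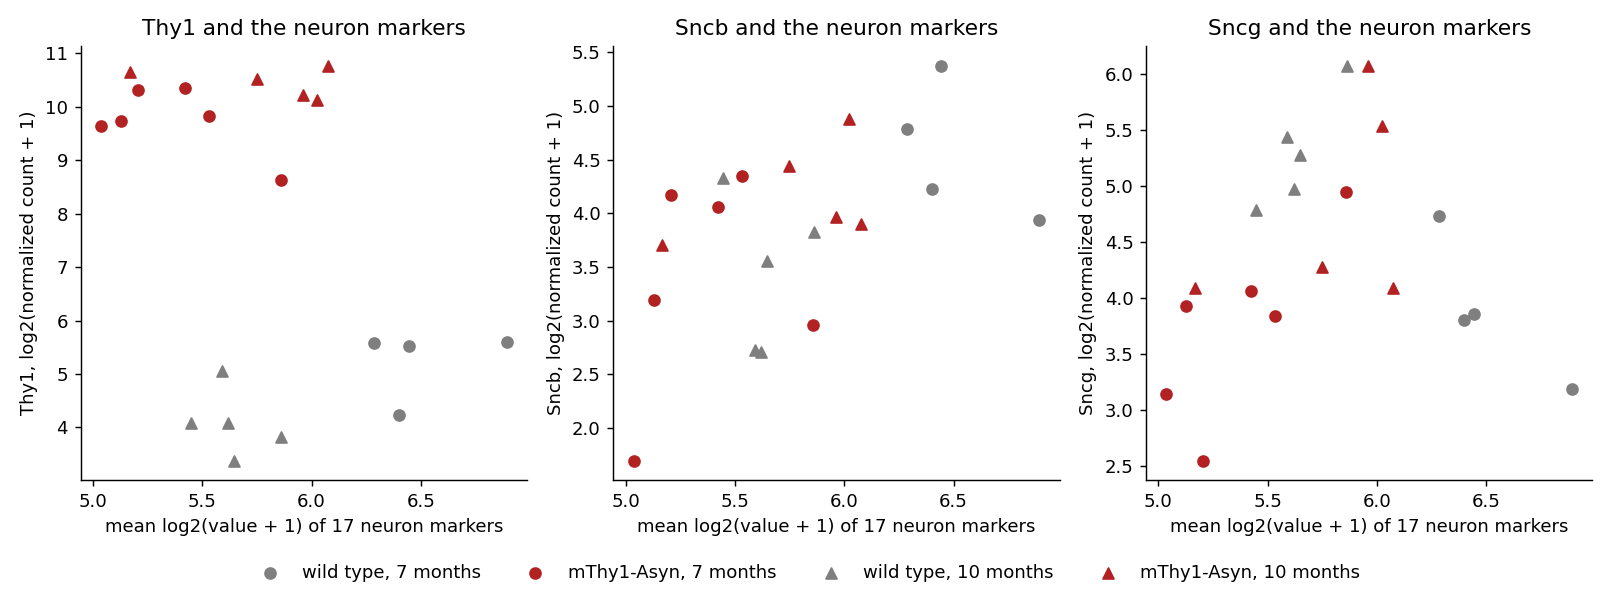
Log2(normalized count + 1) of Thy1, Sncb and Sncg in each of the 20 mice (vertical axes) against the mean of the same measure over 17 neuronal markers (horizontal axis). Gray is wild type and red mThy1-Asyn, with circles for 7 and triangles for 10 months. The 4 wild-type mice of 7 months lie farthest to the right, from 6.29 to 6.89. In the Thy1 panel every gray point lies below every red point.

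Markers of other brain cells were called at 7 months as well, where 2.7% of all tested genes were called lower and 2.23% higher. Of the astrocyte markers, 4 of 9 were called lower, including the enzyme Aldoc (-1.24, limma adjusted p = 0.0035) and the calcium-binding protein gene S100b (-1.78, limma adjusted p = 0.0032), and 1 higher, the glutamate transporter Slc1a3 (0.35). Of 7 oligodendrocyte markers, Mbp and Mobp were called lower, and of 6 endothelial markers Cldn5 and Pecam1. The calls of Mbp, Mobp and Cldn5 were lost without wild-type replicate 1 (adjusted p from 0.0546 to 0.104), and those of Pecam1 and Slc1a3 were lost in 4 and 5 of the 10 fits without 1 mouse. At 10 months, where 3.88% of all tested genes were called higher, Aldh1l1 was the 1 called of 9 astrocyte markers (higher by 1.09, limma adjusted p = 0.0493), a call lost in 9 of the 10 fits without 1 mouse, and none of 6 oligodendrocyte or 6 endothelial markers was called. No marker of mural cells or fibroblasts was called, of 6 tested at 7 months and 7 at 10 months. Of all tested genes, 4.93% were called at 7 months and 7.67% at 10 months. The median log2 fold changes at 7 and 10 months were -1.15 and 0.57 for astrocytes, -0.88 and -0.20 for oligodendrocytes, -0.54 and -0.30 for endothelial cells, and -0.23 and 0.06 for mural cells and fibroblasts.

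T cells are the other cells that carry much Thy1 in mice. Of 13 T cell markers in the table, 8 were tested at each age, and the log2 fold change was negative in 5 of them at 7 months and in 7 at 10 months. At 7 months only Cd2, an adhesion receptor, was called (4.93% of all tested genes were), and it was lower (23.1 ± 12.3 against 68.2 ± 14.1 normalized counts), a call lost in 6 of the 10 fits without 1 mouse (adjusted p up to 0.112). At 10 months, where 7.67% of all tested genes were called, Cd3d, a chain of the T cell receptor complex, was lower (50.4 ± 21.3 against 249 ± 82.8, log2 fold change -2.33, limma adjusted p = 0.0014), and Il7r, the interleukin-7 receptor, was higher (0.78, limma adjusted p = 0.0094). Cd3e, the neighboring chain of that complex, was near 0 in all groups, with group means between 1.05 and 10.9. The median log2 fold change of the list was -0.22 at 7 months and -0.48 at 10 months. The summed level ran from 2661 to 4480 normalized counts in mThy1-Asyn mice and from 2544 to 3295 in wild-type mice at 7 months, and from 1771 to 2753 and 1231 to 1999.5 at 10 months. Il7r alone, with group means from 1089 to 3419, made up most of these sums.

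The genes through which Thy1 is bound or signals were well expressed in these microglia, and 3 were called at each age. Thy1 binds the integrins αvβ3, αMβ2 and αXβ2 and the heparan sulfate proteoglycan syndecan-4, and on its own cell works with Src family kinases and their adaptor Pag1. Of 13 such genes, all were tested at both ages. At 7 months, where 2.23% of all tested genes were called higher, 3 were called, all higher in mThy1-Asyn mice: Pag1 (35751 ± 1571 against 27726 ± 2354 normalized counts, limma adjusted p = 0.0064), the kinase Lyn (0.29, limma adjusted p = 0.0158) and the integrin chain Itga5 (0.46, limma adjusted p = 0.046). Lyn lost its call without wild-type replicate 2 (adjusted p = 0.0558) and Itga5 lost it in 8 of the 10 fits without 1 mouse.

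At 10 months, Itgam (0.22) and Itgax (0.31), the α chains of the leukocyte integrins, were called higher and Sdc4 (-0.46) lower, where 7.67% of all tested genes were called in either direction. Leaving out 1 mouse ended these calls in 9, 9 and 5 of 10 fits, with adjusted p of at most 0.0991. The β3 chain Itgb3 had 5476 ± 707 normalized counts against 5293 ± 273 at 7 months and 4631 ± 507 against 4494 ± 863 at 10 months, and was called at neither age. The median log2 fold change of the list was 0.04 at 7 months and -0.07 at 10 months.

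Other GPI-anchored proteins of the neuronal surface, the class to which Thy1 belongs, were called higher at neither age. At 7 months 9 of 14 were tested, every value was negative (median -0.75), and 2 were called lower, against 2.7% of all tested genes. Ntm, the adhesion protein neurotrimin, had 115 ± 61.1 against 619 ± 229 normalized counts (-2.52, limma adjusted p = 0.0056), and Cntn2, an axonal contactin, 10.4 ± 7.14 against 46.2 ± 16.8 (limma adjusted p = 0.0314). At 10 months none of 9 was called (median 0.16), where 7.67% of all tested genes were, and Ntm had 207 ± 76.7 against 151 ± 51.2. The call of Cntn2 was lost in 5 of the 10 fits without 1 mouse.

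Synaptic vesicle and SNARE genes, the setting in which synucleins act, held 23 tested genes at 7 months, of which Syt1, Rph3a and Slc17a7 were called lower (median -0.25), where 2.7% of all tested genes were called lower. At 10 months Sv2a, a vesicle glycoprotein (779 ± 176 against 498 ± 84.3), and Syngr1, a vesicle membrane protein (5247 ± 509 against 3982 ± 616), were called higher among 22 (median 0.20), where 3.88% of all tested genes were. The calls of Rph3a, Slc17a7, Sv2a and Syngr1 were each lost in at least 4 of the 10 fits without 1 mouse, and that of Syt1 in none.

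Genes for receptors and uptake of α-synuclein gave 1 call among 7 at each age, where 4.93% of all tested genes were called at 7 months and 7.67% at 10 months. At 7 months Tlr4, a receptor of innate immunity, was higher (0.44, limma adjusted p = 0.0297), a call lost in 5 of the 10 fits without 1 mouse. At 10 months the endocytic receptor Lrp1 was higher, at 57190 ± 7576 against 39595 ± 4358 normalized counts (0.53, limma adjusted p = 0.0071). Lag3, a receptor for α-synuclein fibrils, was at 18225 ± 5510 against 15243 ± 1670 at 7 months and was called at neither age. The medians of the list were 0.11 at 7 months and 0.06 at 10 months.

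Genes for the kinases that phosphorylate α-synuclein and for its breakdown had no call among 16 at 7 months (median 0.07). Of all tested genes 4.93% were called at that age, so few or no calls would be usual for a list of this length. At 10 months 2 of 17 were called, both lower (median -0.12), where 3.79% of all tested genes were called lower: Plk2, a kinase of α-synuclein serine residues (283 ± 29.4 against 403 ± 43.6), and Hspa8, the chaperone of chaperone-mediated autophagy (61316 ± 3818 against 89625 ± 21457). Each call was lost in 5 of the 10 fits without 1 mouse. Ctsd, the lysosomal protease that cleaves α-synuclein, was among the most abundant genes of the list and was called at neither age.

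No gene matched by symbol to a position around Thy1 on chromosome 9 rose as Thy1 did. Of the tested genes, 13220 of 13887 at 7 months and 12980 of 13627 at 10 months were matched, so neighbors under other symbols could be missing. Of 46 matched genes within 1 Mb of Thy1, 33 were tested at 7 months. Of these, 2 (6.06%, against 4.93% of all tested genes) were called, Hyou1 (0.28) and Rps25 (-0.52). The median log2 fold change was -0.02 and the highest 0.42. At 10 months 4 of 30 (13.3%, against 7.67% of all) were called, with a median of -0.05 and a highest value of 0.50. These were Vps11 (0.29) and Phldb1 (0.48), which were higher, and Hyou1 (-0.55) and Cd3d (-2.33), which were lower.

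The nearest matched and tested genes after Thy1 were Usp2, Rnf26 and Mcam. The ubiquitin protease gene Usp2, at 18.4 kb, had a log2 fold change of 0.30 at 7 months (limma adjusted p = 0.102) and 0.09 at 10 months (limma adjusted p = 0.548). Before Thy1, the nearest matched genes tested at both ages were Oaf, Tmem136 and Arhgef12, at 803 kb and beyond, and none was called. D630033O11Rik, at 763 kb, was tested at 7 months only and was not called. Rps25 at 7 months and Hyou1 and Cd3d at 10 months kept their calls without any 1 mouse, whereas Hyou1 at 7 months, Vps11 and Phldb1 did not in at least 4 of 10 such fits.

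**Figure D5:**
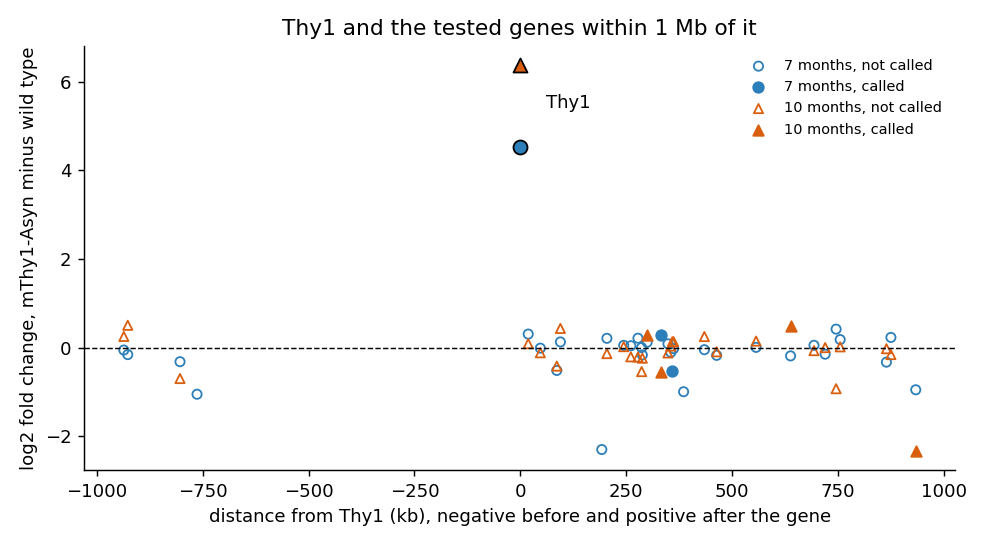
Log2 fold change (mThy1-Asyn minus wild type) of Thy1 and of the tested genes matched by symbol within 1 Mb of it, by distance in kb. Circles are 7 months and triangles 10 months. Filled symbols are genes called at an adjusted p under 0.05, and the highest value among the neighbors is 0.50 against 4.51 and 6.37 for Thy1.

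The genes whose levels followed Thy1 most closely over the 20 mice, after each age was centred on its mean, were Clec1a (Pearson r = 0.94), Gpr160 (0.92), Chst2 (0.90), Rbfox1 (0.90) and Nudt6 (0.90), out of 13484 genes. Since Thy1 splits the genotypes, this measure picks genes that do so too. Clec1a, a C-type lectin receptor, was higher by 0.89 at 7 months (limma adjusted p = 0.0037) and 1.43 at 10 months (limma adjusted p = 0.00024). Gpr160, an orphan receptor, was higher by 1.18 and 1.07, and Rbfox1, a splicing regulator of neurons, by 1.22 and 1.79. Chst2, a sulfotransferase, was higher by 1.47 and 2.95, with the 7-month call lost in 7 of the 10 fits without 1 mouse. Nudt6 was higher by 0.84 and 0.93. It is transcribed antisense to Fgf2, so without strand information reads from this pair cannot be told apart, and its call at 7 months was lost without wild-type replicate 1 (adjusted p = 0.0691) or 3 (adjusted p = 0.0525).

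With each of the 4 groups centred instead, so that the genotype no longer enters, the closest genes to Thy1 were Zfp534 (r = 0.76), Myo16, Fbxl7, Pbld2 and Lcmt2 (0.71). For Sncb the closest genes were Ubap2 (r = 0.80), Usp46, Bhlhb9, Ttl and Kpnb1 with ages centred, and Nol9 (0.80), Rdx, Suz12, Nop14 and Arhgap25 with groups centred. For Sncg they were Sorbs2 (0.79), 9430020K01Rik, Mfsd7c, Myh11 and Tsc22d1 with ages centred. With groups centred they were Sorbs2 (0.84), the neurofilament gene Nefl (0.80), Ccdc141, Brsk1 and 9430020K01Rik. Among the 3 genes themselves, with ages centred, r was -0.00096 between Sncb and Thy1, 0.05 between Sncb and Sncg and -0.31 between Sncg and Thy1. These are descriptions over mice that share a sequencing run and, for Sncb and Sncg, rest on 2 to 70 reads per mouse. The genes named had the highest r of 13484 genes over 20 mice. How high r runs among unrelated genes was not tested.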

How the data were processed

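RNA of microglia from 20 male mice was sequenced in 1 run. Per the methods and the submitters' processing notes, the authors trimmed reads with Trim Galore 0.6.7, mapped them to mm10 with HISAT2 2.2.1, assigned them to genes with featureCounts and scaled the counts with DESeq2 1.44.0 size factors. The deposited signal values are these normalized counts, set separately for each age, and whole reads were recovered from them (all values under 200 reads were whole within 0.01 of a read; in mThy1-Asyn replicate 5 at 10 months this could not be tested). The annotation release, strand and treatment of multiple mapping are not given in the sources used here. Depth was 33404096 to 77806399 reads on genes per mouse, and mice of a group differed by at least 24.7 chi-square per gene, far above counting noise.

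The main test was limma 3.58.1 (R 4.3.3; trend, robust) on log2(value + 1) over all genes that reached 10 in 4 or more mice (7 months; interaction, of 20 mice) or in 5 or more (10 months), with Benjamini-Hochberg adjustment and a cutoff of 0.05. Folds on this scale understate changes of low genes. The interaction is the genotype difference at 10 months minus that at 7 months. Alternatives on recovered reads used edgeR 4.0.16, limma-voom and DESeq2 1.42.0, and the tests were tried on simulated data. Gene positions and exon lengths came from the GRCm38 annotation by symbol (lengths for 13220 of 13887 and 12980 of 13627 tested genes). The 3 genes and the lists (cell types, Thy1 binding, GPI anchors, synuclein partners) were chosen with earlier results of these data known, and lists are given by counts and medians. A few list genes are not reported here, and lists are counted without them. Of each list, up to 4 genes with the highest mean or smallest adjusted p were named, plus called genes where 5 or fewer, chosen after their values were seen. Likeness is Pearson's r of log2 values, with the 5 closest genes named.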

Additional observations from a re-analysis of the deposited data

Results flagged for a closer look

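Thy1 in wild-type replicate 3 at 7 months (17.7 normalized counts, the others 44.7 to 47.6) stood apart from its group, the gap taking 0.902 of the group's range against a critical value of 0.829. Thy1 in wild-type replicate 2 at 10 months (32.4 normalized counts, the others 9.41 to 15.9) did so too, with 0.717 against 0.710. Chance alone sets apart about 1 in 20 groups, and 12 sets of values (3 genes in 4 groups) were examined. The genotype difference of Thy1 was larger at 10 months than at 7 months by 1.86 on the log2 scale (limma interaction, adjusted p = 0.0208), a call that some alternatives ended, including leaving out wild-type replicate 1 of 7 months (1.73, adjusted p = 0.0518) and limma-voom with quality weights (2.00, adjusted p = 0.324).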

How the results depend on the processing

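The Thy1 difference kept its direction and call in all 21 alternatives at each age (log2 4.18 to 4.74 at 7 months and 6.05 to 6.61 at 10 months), and Sncb and Sncg were called in none. Sncg at 7 months changed sign, from -0.15, with the replicate block (0.10), without mThy1-Asyn replicate 6 (0.09) and without wild-type replicate 4 (0.13), and without single mice ranged from -0.39 to 0.13. The Thy1 interaction missed the cutoff with limma-voom quality weights (2.00), with the replicate block (1.99, adjusted p = 0.0679) and without wild-type replicate 1 of 7 months, and without single mice ranged from 1.63 to 2.19. Itgb3, never called, ranged from -0.0041 to 0.0915 at 7 months and from -0.017 to 0.16 at 10 months without single mice. The cause was not tested. Genes called numbered 684 at 7 months (1159 with DESeq2, 414 with the block, 282 to 858 without single mice, lowest without wild-type replicate 1), 1045 at 10 months (1676 with DESeq2, 497 to 1235, lowest without wild-type replicate 2) and 920 in the interaction (482 with the block, 618 to 1096). Equal replicate numbers did not pair mice: their correlations lay between -0.134 and 0.0995 and no mouse correlated best with its own number. With a minimum of 50 normalized counts Sncb and Sncg were not tested, and at 2 to 70 reads their counts limit what could be detected.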
